A study of Homo sapiens with 18 samples.

Results

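The HOX cluster genes were examined in mRNA sequencing of 3 head and neck squamous cell carcinoma (HNSCC) lines, as all genes of the count table whose symbol is HOX, a cluster letter from A to D and a number. This rule gave 39 genes of 19901 in the table, 11 in HOXA, 10 in HOXB, 9 in HOXC and 9 in HOXD. Detroit 562 was established from a metastasis of a pharyngeal carcinoma, FaDu from a primary tumor of the hypopharynx and SCC-9 from a primary tumor of the tongue. Each line gave 3 libraries of untreated cells and 3 libraries of cells that received 50 ng/ml hepatocyte growth factor (HGF), the ligand of the Met receptor tyrosine kinase. The sample records and the paper state 16 h of treatment and the series record states 48 h. Detroit 562 and FaDu grew in MEM-α, whereas SCC-9 grew in DMEM F12 with hydrocortisone. With 1 line for each site of origin, the effects of line, site and medium cannot be told apart.

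HOX genes encode homeodomain transcription factors that give cells their position along the body axis. In each cluster the genes lie in the order in which they are used from head to tail, with paralog group 1 at the anterior and group 13 at the posterior end. Adult cells often keep such a pattern, and the proteins bind DNA together with TALE homeodomain partners of the PBX, MEIS and PKNOX families. Polycomb and Trithorax complexes keep the clusters closed or open, and retinoic acid acts on their anterior genes during development.

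The libraries held between 35304770 and 44003970 counts. In the authors' counting, a read added to each gene of the same strand that it overlapped, introns included. Of the 39 HOX genes, 22 overlap another HOX gene on the same strand and 17 do not. HOXA4, HOXA5 and HOXA6 lie inside the row of HOXA3, HOXB4, HOXB5 and HOXB6 inside or almost inside that of HOXB3, and HOXB8 and HOXB9 inside that of HOXB7. HOXC5 lies inside HOXC4, HOXC8 and HOXC9 inside HOXC6, and HOXD4 inside HOXD3. Reads of an inner gene therefore also count for the outer one, and values with the inner genes' counts subtracted are given where they change a result. Reads of an outer gene that fall within an inner one count for both as well. The subtraction takes these away too, so that it leaves a lower bound of the outer gene's reads. HOXA9 and HOXA10 overlap in part (4590 bases), as do HOXC4 and HOXC6 (13893) and HOXD10 and HOXD11 (965). Reads in these shared stretches count for both genes and were not subtracted. Levels per library are normalized counts, that is counts scaled to the same effective library size. Before fitting, genes with too few counts were removed, which left 15475 genes and 38 of the 39 HOX genes, without HOXB1.

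All 10 epithelial and squamous markers (such as CDH1, KRT5 and TP63) were detected in each line. Detection does not mean a like level, since KRT14 had 43 to 52 counts in untreated Detroit 562. It had 13553 to 20313 in untreated FaDu and 98822 to 133666 in untreated SCC-9. Of 8 fibroblast markers 2 (Detroit 562), 1 (FaDu) and 3 (SCC-9) were detected, of 5 leukocyte markers 0, 2 and 1, and of 4 endothelial markers 1, 2 and 2. Over the 6 libraries of a line, the summed normalized counts of the fibroblast markers lay between 616 and 2191 (Detroit 562), 145 and 278 (FaDu) and 2428 and 3992 (SCC-9). Those of the leukocyte markers reached at most 28.5, 265 and 412 and those of the endothelial markers 120, 334 and 66.7. The markers of these 3 lists with at least 10 counts in each untreated library were COL1A1 in every line (169 to 3646 counts), COL1A2 in Detroit 562 and SCC-9 (406 to 1396) and DCN in SCC-9 (58 to 73), CD14 in FaDu and SCC-9 (177 to 413) and ITGAM in FaDu (18 to 42), VWF in every line (13 to 204), CDH5 in FaDu (60 to 132) and PECAM1 in SCC-9 (13 to 21). Among the defining markers PTPRC, CD3E and LUM had at most 4 counts in an untreated library, PDGFRB at most 10, PDGFRA at most 17 and KDR at most 22. The methods describe cultures of established cell lines and name no other cells in them. The part of other cell types in the differences below was not tested. In such bulk libraries fewer cells of a type and less RNA per cell cannot be told apart.

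The clusters occupy short stretches of 4 chromosomes. In GRCh38, the build of the files, the counted rows of HOXA run from 27092993 to 27200106 on chromosome 7 (minus strand) and those of HOXB from 48528526 to 48729178 on chromosome 17 (minus strand). HOXC runs from 53938765 to 54056030 on chromosome 12 and HOXD from 176092891 to 176190907 on chromosome 2, both on the plus strand. Upstream sequences from RefSeq were at hand for 20 of the 39 genes. Those of 3 genes are shown because they are the posterior HOXD gene that changed with HGF, the HOXD gene with the largest difference between lines and the posterior HOXA gene that marked Detroit 562. Each holds the 250 bases before the RefSeq start of the gene (GRCh38.p14, 5′ to 3′ on the gene's strand), with CpG dinucleotides in capitals. None of the 3 windows overlapped an annotated exon of GENCODE 44, and the window of HOXD3 lies inside the counted row of HOXD3.
HOXD13, chr2:176092471-176092720, plus strand: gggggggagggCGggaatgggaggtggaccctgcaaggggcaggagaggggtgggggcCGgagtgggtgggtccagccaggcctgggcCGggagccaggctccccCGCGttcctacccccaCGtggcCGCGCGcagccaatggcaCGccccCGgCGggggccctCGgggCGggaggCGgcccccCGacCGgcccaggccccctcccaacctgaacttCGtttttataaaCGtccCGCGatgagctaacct
HOXD3, chr2:176157057-176157306, plus strand: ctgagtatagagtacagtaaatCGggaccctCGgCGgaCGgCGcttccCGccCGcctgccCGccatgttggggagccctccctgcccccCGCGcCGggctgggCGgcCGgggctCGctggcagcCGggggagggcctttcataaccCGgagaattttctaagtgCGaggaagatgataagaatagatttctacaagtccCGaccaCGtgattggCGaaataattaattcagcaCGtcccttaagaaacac
HOXA13, chr7:27200092-27200341, minus strand: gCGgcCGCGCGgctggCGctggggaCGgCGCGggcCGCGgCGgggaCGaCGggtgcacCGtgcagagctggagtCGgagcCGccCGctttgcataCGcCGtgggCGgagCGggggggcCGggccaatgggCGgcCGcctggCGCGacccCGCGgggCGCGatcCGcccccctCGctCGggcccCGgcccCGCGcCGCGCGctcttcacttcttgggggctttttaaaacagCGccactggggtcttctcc
HOXD13 and HOXD3 hold 21 CpG dinucleotides each and HOXA13 holds 40. HOXC4 and HOXC5 share a window, so that 19 distinct ones were counted. Over these the median was 21 CpG, beside 11 over the 34943 distinct windows of all genes, while the median GC content was 59.2% beside 58%. The TATA box letters TATAAA were found on either strand in 4 of the 19 HOX windows, among them that of HOXD13, and in 10.8% of all windows. The letters TGATNNAT, known as a composite site of HOX and PBX proteins, were found in 3 of 19 and in 6.49% of all. Neither the AP-1 motif (TGA, any base, TCA, 6.59% of all) nor AGGTCA, a motif of nuclear receptors (12.1% of all), was found in a HOX window. A match describes the letters and does not show that a factor binds there.

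All 4 clusters were transcribed in each line. A gene was taken as detected with at least 10 counts in each of the 3 untreated libraries and as not detected with at most 3 counts in each, and genes in between were taken as low. By this count Detroit 562 had 30 HOX genes detected, FaDu 33 and SCC-9 28, while 6, 4 and 8 were low and 3, 2 and 3 not detected. Of all genes 69.4%, 69.9% and 70.4% were detected in the same libraries. HOXA2, HOXA4, HOXA6 and HOXA13 were detected in Detroit 562 and FaDu and low in SCC-9. HOXD was detected with 5 of 9 genes in Detroit 562 and in FaDu and with 7 of 9 in SCC-9. The lines shared 23 detected HOX genes (64% of all genes were detected in all 3 lines), among them HOXC4 to HOXC11 and HOXD8 to HOXD11. HOXB1, the anterior gene of HOXB used in the hindbrain, had at most 1 count in any of the 18 libraries, and HOXD12 was detected in none of the lines.

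**Figure D1:**
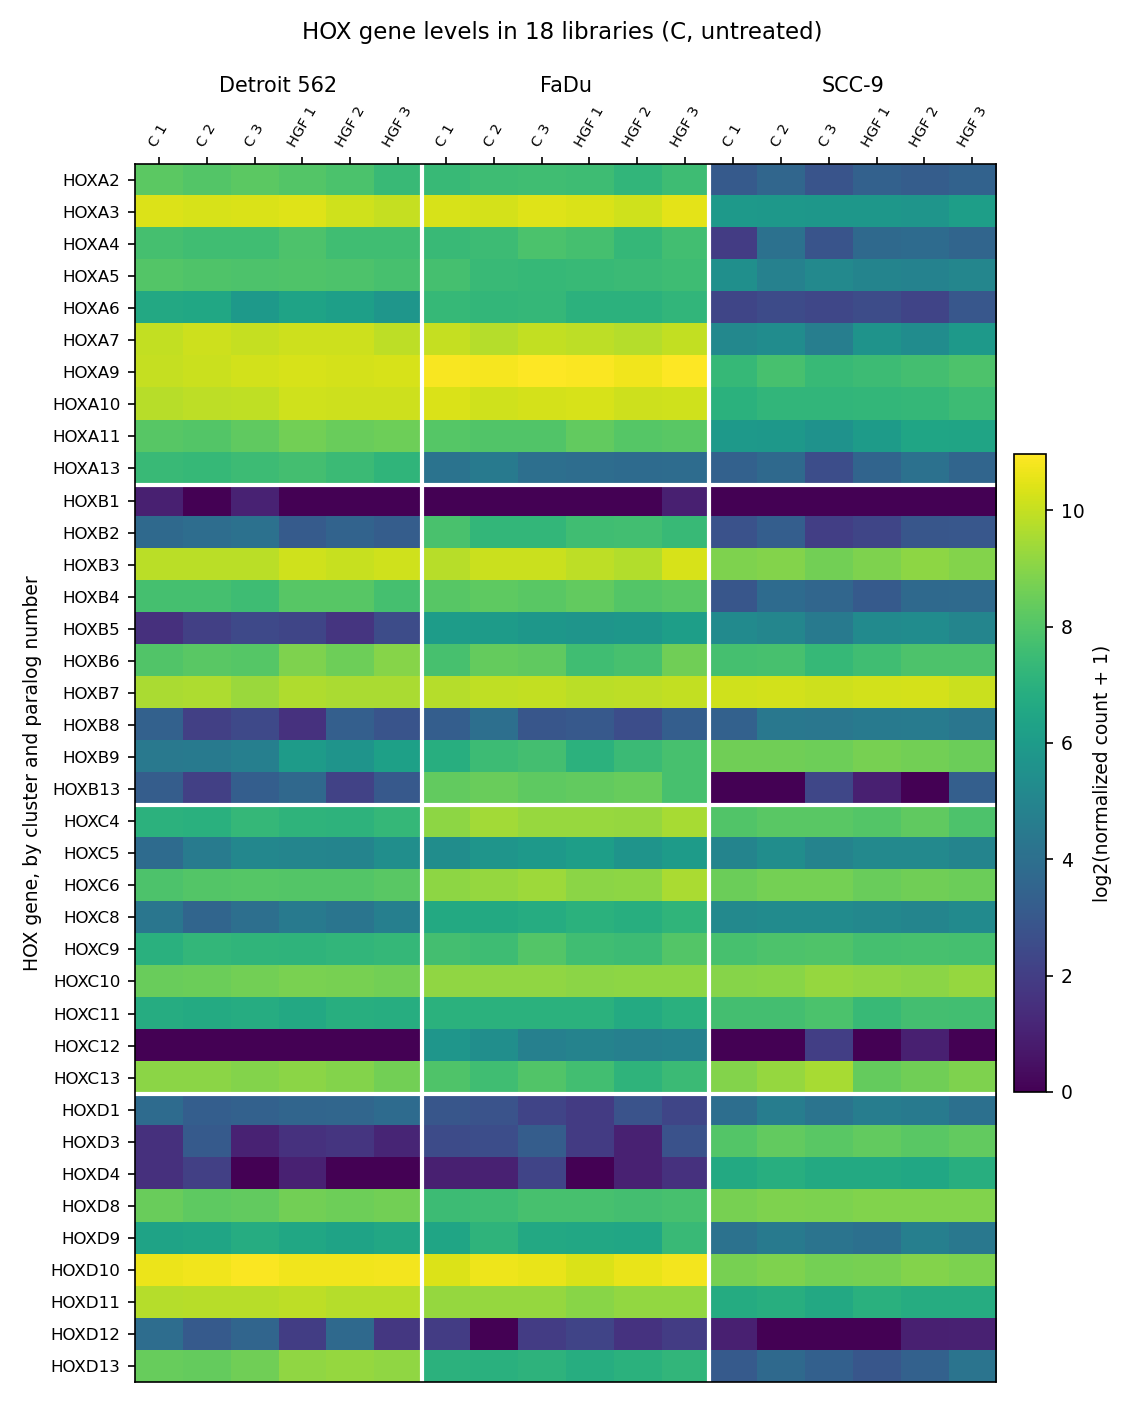
Heat map of 38 HOX genes (rows, by cluster and paralog number) in the 18 libraries (columns, C untreated), as log2 of the normalized count plus 1. HOXA is darker throughout in SCC-9, HOXD3 and HOXD4 are bright in SCC-9 only, and HOXB13 and HOXC12 are bright in FaDu only.

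A pair of genes was detected in one line and not detected in another. HOXC12, a posterior gene known from hair and nail, had 53.3, 42.3 and 26.4 normalized counts in untreated FaDu and 0 in all 6 libraries of Detroit 562. In untreated SCC-9 it had 0, 0 and 3.07. Against the limit of 3 counts per library that a count of 0 allows, HOXC12 was at least 13-fold higher in FaDu than in Detroit 562. HOXD4, an anterior gene of the hindbrain and neck, had 98.8, 115 and 100 normalized counts in untreated SCC-9, 1.89, 3.27 and 0 in Detroit 562 and 0.952, 1.01 and 3.76 in FaDu. Of all genes, 0.94% were detected in FaDu and not in Detroit 562 and 1.53% in SCC-9 and not in Detroit 562. HOXC12 in SCC-9 reached 3 counts in 1 library and so was not detected there either (0.774% of all genes for FaDu against SCC-9). No HOX gene was detected in Detroit 562 and not in FaDu (0.678% of all genes) or not in SCC-9 (0.884%), and none in SCC-9 and not in FaDu (1.21%).

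To compare levels between genes, normalized counts were scaled to library size as CPM and divided by the exon length in kilobases (GENCODE 44). HOXD10, a gene of the posterior limb and trunk, had the highest level in untreated Detroit 562 with 17.4 ± 1.74 (SD, n = 3), before HOXB7 with 11.9 ± 1.33, HOXA7 with 10.8 ± 0.613 and HOXD11 with 10.3 ± 0.21. Neighbors among HOXB7, HOXA7 and HOXD11 do not differ beyond their spread. In FaDu the order began with HOXA9 at 15.6 ± 0.711, HOXB7 at 15.4 ± 1.15 and HOXD10 at 15.1 ± 1.57, which do not differ beyond their spread. HOXA9 is a central factor of blood stem cells and leukemia. SCC-9 had HOXB7 first with 18.8 ± 0.5, well above HOXC13 at 6.42 ± 1.36, HOXC10 at 5.69 ± 0.612 and HOXD10 at 4.31 ± 0.237. HOXC13 is a regulator of hair and nail keratins, and its level does not differ from that of HOXC10 beyond the spread. The row of HOXB7 holds the reads of HOXB8 and HOXB9 and counts introns, and its level per exon length includes both. The rows of HOXA9 and HOXD10 overlap those of HOXA10 and HOXD11 in part and share reads with them.

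The untreated lines were compared with edgeR's quasi-likelihood test, with p-values adjusted by Benjamini-Hochberg over all 15475 genes. Called genes had a log2 difference of 0.4 or more in size and a p below 0.1 after adjustment. Between Detroit 562 and FaDu 25 of the 38 HOX genes tested were called (61% of all genes), between Detroit 562 and SCC-9 36 (65.4%) and between FaDu and SCC-9 33 (64.2%). Since most genes differ between the lines, calls of at least 4-fold were counted as well. They were 9 of 38 (14.1% of all genes), 21 (17.5%) and 18 (16.1%), respectively. Of the 25 genes called between both pharyngeal lines 10 were higher in Detroit 562 (31.2% of all genes) and 15 were higher in FaDu (29.8%). Against SCC-9, Detroit 562 had 21 higher (31.4%) and 15 lower (33.9%), and FaDu had 26 higher (30.7%) and 7 lower (33.5%). The median log2 difference over the HOX genes was -0.22 for Detroit 562 minus FaDu, 1.14 for Detroit 562 minus SCC-9 and 1.34 for FaDu minus SCC-9. Over all genes tested the medians were -0.01, -0.03 and -0.02. All 3 comparisons share the libraries of a line with another one.

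**Figure D2:**
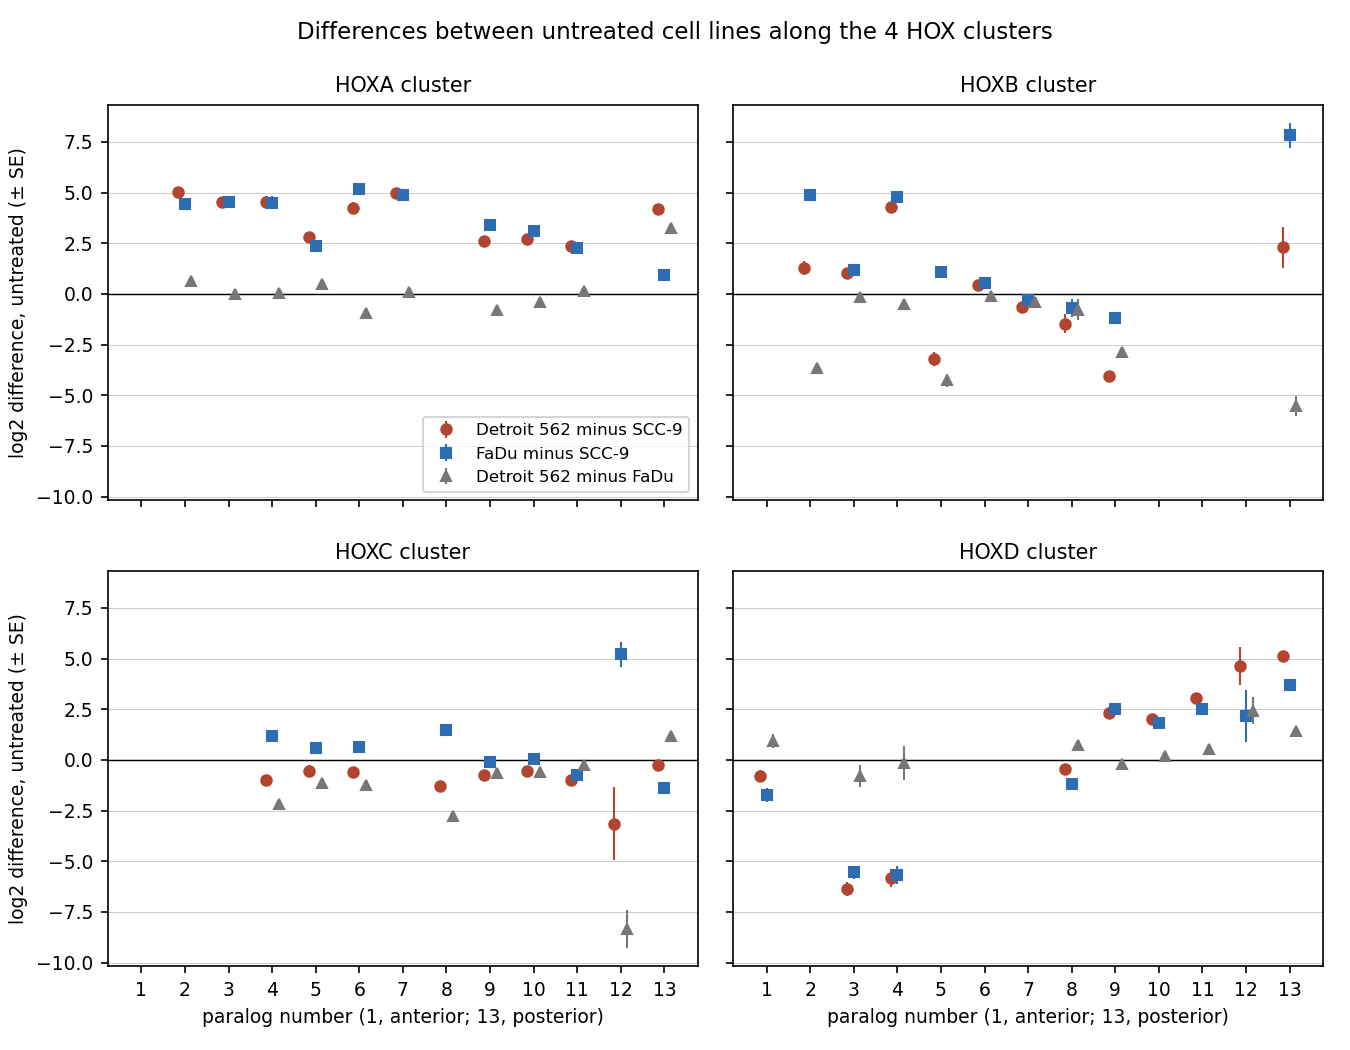
Log2 differences between untreated lines for HOX genes tested, by cluster and paralog number, with standard errors from edgeR. The HOXA genes shown lie above 0 against SCC-9, and the HOXD genes change sign between HOXD8 and HOXD9. Values of genes with few counts, such as HOXC12, HOXD12, HOXD4 and HOXB13, depend on the prior count of the fit.

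The HOXA genes were lower in SCC-9. All 10 from HOXA2 to HOXA13 were called lower than in Detroit 562 and all 10 lower than in FaDu, beside 31.4% and 30.7% of all genes called in that direction. HOXA2, which patterns the second pharyngeal arch, had 296, 259 and 292 normalized counts in Detroit 562 and 167, 188 and 193 in FaDu, while SCC-9 had 7.67, 11.4 and 6.13. The libraries of SCC-9 did not reach those of either other line, and the log2 difference was 5.04 ± 0.224 (SE, adjusted p = 3.27e-12) against Detroit 562 and 4.41 ± 0.227 against FaDu. HOXA7 had 992, 1108 and 1026 in Detroit 562, compared with 1027, 865 and 999 in FaDu and 33.6, 39.1 and 24.5 for SCC-9. Its level in both pharyngeal lines was alike within the spread (log2 difference 0.11 ± 0.116, adjusted p = 0.395). HOXA6 showed the largest difference of the cluster between FaDu and SCC-9, with 162, 152 and 157 against 3.84, 4.76 and 4.09 normalized counts and a log2 difference of 5.17 ± 0.272 (adjusted p = 2.89e-11). HOXA3, a factor of thymus and parathyroid development, had log2 differences of 4.53 against Detroit 562 and 4.52 against FaDu, which grew to 6.49 and 6.47 once the reads of HOXA4, HOXA5 and HOXA6 were subtracted. The subtraction left 8, 8 and 10 counts of HOXA3 in untreated SCC-9, so that the larger values rest on few counts.

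Between Detroit 562 and FaDu 6 of the 10 genes from HOXA2 to HOXA13 were called (61% of all genes). In Detroit 562 3 were higher (31.2%) and 3 lower (29.8%). HOXA2 and HOXA5 were among the higher ones. HOXA2 fell below the minimum size between the HGF-treated libraries (0.34) and HOXA5 without library 3 of untreated FaDu (0.39). HOXA6 was lower, with 96.4, 90.4 and 59.4 normalized counts against 162, 152 and 157 in FaDu. HOXA9 was higher in FaDu, with 1868, 1823 and 1990 normalized counts against 1011, 1093 and 1180 in Detroit 562 and 161, 216 and 168 in SCC-9. Its log2 difference of Detroit 562 minus FaDu was -0.79 ± 0.104 (adjusted p = 3.19e-06). HOXA13, which patterns the distal limb and the hindgut end, went the other way. It had 170, 161 and 180 in Detroit 562, compared with 17.1, 21.1 and 15.1 in FaDu and 9.59, 12.4 and 5.11 for SCC-9, which made it 9.55-fold higher in Detroit 562 than in FaDu (log2 difference 3.26 ± 0.224, adjusted p = 9.45e-10). Between FaDu and SCC-9 HOXA13 was called as well (0.95 ± 0.294, adjusted p = 0.00749), with a value of 0.11 (adjusted p = 0.754) between the HGF-treated libraries. HOXA3, HOXA4, HOXA7 and HOXA11 were not called between both pharyngeal lines. HOXA10, involved in uterus and limb development, had a called difference of -0.41 ± 0.0783, whose size was below the minimum of 0.4 without library 1 of untreated Detroit 562 or without library 1 of untreated FaDu (-0.37 each) and was -0.07 between the HGF-treated libraries.

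In the HOXB cluster 5 of the 9 genes tested were called lower in Detroit 562 than in FaDu (29.8% of all genes) and none higher (31.2%), and the fitted differences of all 9 lay below 0. Against SCC-9 the directions were mixed, with 5 called higher (31.4%) and 4 lower (33.9%) in Detroit 562 and 6 higher (30.7%) and 1 lower (33.5%) in FaDu. HOXB13, a posterior gene known from prostate and rectum, had 320, 352 and 298 normalized counts in FaDu, 8.51, 3.27 and 8.64 in Detroit 562 and 0, 0 and 4.09 in SCC-9. The fitted log2 difference was -5.53 ± 0.486 for Detroit 562 minus FaDu (adjusted p = 2.2e-08) and 7.82 ± 0.612 for FaDu minus SCC-9 (adjusted p = 4.57e-09). HOXB2, an anterior gene of the hindbrain, was also high in FaDu only, with 225, 153 and 154 against 12.3, 14.2 and 16.2 in Detroit 562 and 5.75, 8.58 and 3.07 in SCC-9. These genes lie toward opposite ends of the cluster, and neither overlaps another HOX gene. Between Detroit 562 and SCC-9 the libraries of HOXB13 overlapped, and its call (2.29 ± 1.02, adjusted p = 0.0504) was lost without library 1 or 3 of untreated Detroit 562 or library 1 or 2 of untreated SCC-9 (adjusted p between 0.113 and 0.15). HOXB5 had 1.89, 3.27 and 4.32 in Detroit 562, compared with 66.6, 64.4 and 55.5 in FaDu and 36.4, 31.4 and 21.5 for SCC-9. No library of Detroit 562 reached those of the other lines, and the fitted log2 difference to FaDu was -4.27 ± 0.317 (adjusted p = 2.54e-09). HOXB4, which supports blood stem cells, was low in SCC-9 alone, with 6.71, 13.3 and 11.2 against 214, 213 and 189 in Detroit 562 and 277, 301 and 289 in FaDu. The fitted difference of Detroit 562 minus SCC-9 was 4.28 ± 0.213 (adjusted p = 1.32e-11). The call of HOXB4 between Detroit 562 and FaDu was lost between the HGF-treated libraries (-0.18, adjusted p = 0.31). HOXB6 was called lower in SCC-9 than in Detroit 562 (0.46, adjusted p = 0.0729) and than in FaDu (0.56, adjusted p = 0.0332), and both calls were lost without library 3 of untreated SCC-9 (adjusted p = 0.233 and 0.129), the first also without library 2 or 3 of untreated Detroit 562 and the second without library 2 of untreated FaDu. HOXB8 had at most 20 normalized counts in an untreated library, and 1 of its 3 comparisons was called (-1.47 for Detroit 562 minus SCC-9, adjusted p = 0.00908).

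HOXB9, a posterior gene of the thoracic region, formed a series over the lines. It had 20.8, 21.8 and 25.9 normalized counts in Detroit 562 and 116, 182 and 207 in FaDu, while SCC-9 had 385, 380 and 375. No libraries of different lines overlapped, and the log2 differences were -2.88 ± 0.248 between Detroit 562 and FaDu (adjusted p = 1.73e-08), -4.05 ± 0.245 between Detroit 562 and SCC-9 (adjusted p = 1.54e-10) and -1.17 ± 0.197 between FaDu and SCC-9 (adjusted p = 4.37e-05). HOXB7, whose row contains HOXB9, was called lower in Detroit 562 than in SCC-9 (-0.67 ± 0.0839, adjusted p = 1.54e-06). With the reads of HOXB8 and HOXB9 subtracted this difference was -0.12 ± 0.0824 (adjusted p = 0.213). The remaining HOXB7 counts were 764, 698 and 557 in Detroit 562, compared with 775, 760 and 833 in FaDu and 789, 816 and 707 for SCC-9, so that the lines overlapped.

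In the HOXC cluster the anterior genes were highest in FaDu. Of its anterior genes 4 (HOXC4, HOXC5, HOXC6 and HOXC8) were called higher in FaDu than in Detroit 562 and in SCC-9. The posterior gene HOXC12, described above, was also called higher in FaDu than in both. Of all genes 29.8% and 30.7% were called higher in FaDu in these comparisons. HOXC8, a gene of the thoracic region, had 101, 99.7 and 109 normalized counts in FaDu, 18.9, 10.9 and 15.1 in Detroit 562 and 34.5, 38.1 and 37.8 in SCC-9. The log2 difference of Detroit 562 minus FaDu was -2.77 ± 0.195 (adjusted p = 1.36e-09). HOXC4 had 553, 696 and 624 in FaDu, 131, 125 and 155 in Detroit 562 and 249, 286 and 282 in SCC-9, with -2.18 ± 0.139 for Detroit 562 minus FaDu (adjusted p = 3.75e-10). Both genes had the same order, FaDu over SCC-9 over Detroit 562, without overlap of the lines. HOXC6 was called between Detroit 562 and SCC-9 as counted (-0.61 ± 0.128), but no longer with HOXC8 and HOXC9 subtracted (-0.21 ± 0.188, adjusted p = 0.323). HOXC5 had few counts. Its call between Detroit 562 and SCC-9 (-0.55 ± 0.288, adjusted p = 0.0928) was lost without 10 of the 18 libraries in turn (adjusted p between 0.101 and 0.408), by DESeq2 (0.153) and without the filter on low counts (0.124). Leaving out library 1 of untreated Detroit 562 (-0.26) or library 2 of untreated SCC-9 (-0.36) moved its value by more than 1.5 times. The call between FaDu and SCC-9 (0.60, adjusted p = 0.05) was lost without library 2 or 3 of untreated FaDu or library 1 or 3 of untreated SCC-9 (adjusted p between 0.102 and 0.161).

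HOXC13, at the posterior end, was lowest in FaDu, with 243, 191 and 250 normalized counts in FaDu against 532, 534 and 488 in Detroit 562 and 486, 592 and 742 in SCC-9. It was 2.27-fold higher in Detroit 562 than in FaDu (log2 difference 1.18 ± 0.172, adjusted p = 9.97e-06) and 2.66-fold higher in SCC-9 than in FaDu. HOXC10 had 347, 357 and 401 in Detroit 562, compared with 566, 568 and 561 in FaDu and 503, 513 and 608 for SCC-9, where FaDu and SCC-9 overlapped. HOXC11 had 205, 206 and 231 for SCC-9 against 111, 103 and 108 in Detroit 562 and 126, 127 and 126 in FaDu, and SCC-9 was called higher than both (-0.99 ± 0.127 for Detroit 562 minus SCC-9). HOXC9 was called lower in Detroit 562 than in FaDu (-0.65) and than in SCC-9 (-0.76) and not between FaDu and SCC-9. Apart from HOXC12 no HOXC gene differed by a log2 of 2 or more between SCC-9 and another line.

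The HOXD cluster was divided between its ends. From HOXD9 to HOXD13 the genes were higher in the pharyngeal lines than in SCC-9, and HOXD1, HOXD3, HOXD4 and HOXD8 were higher in SCC-9. Against Detroit 562 these were 5 genes called higher (31.4% of all genes) and 4 called lower (33.9%) of 9 tested, against FaDu 4 (30.7%) and 4 (33.5%), where HOXD12 was not called. HOXD13, which patterns the digits and the genital region, had 343, 329 and 381 normalized counts in Detroit 562, compared with 129, 122 and 135 in FaDu and 7.67, 12.4 and 9.2 for SCC-9. The lines did not overlap, and the log2 differences were 1.45 ± 0.162 between Detroit 562 and FaDu (adjusted p = 4.65e-07), 5.15 ± 0.222 between Detroit 562 and SCC-9 (adjusted p = 2.28e-12) and 3.70 ± 0.229 between FaDu and SCC-9 (adjusted p = 2.29e-10). HOXD11 followed the same order, with 855, 891 and 876 in Detroit 562 and 598, 601 and 598 in FaDu, while SCC-9 had 106, 115 and 97.1. HOXD10 had 1599, 1681 and 1931 in Detroit 562 and 1333, 1629 and 1566 in FaDu, which overlapped, and 426, 455 and 409 in SCC-9.

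HOXD3, an anterior gene that also acts in blood vessels, had 262, 325 and 288 normalized counts in SCC-9, 1.89, 7.62 and 1.08 in Detroit 562 and 4.76, 5.03 and 8.47 in FaDu. The fitted log2 difference was -6.35 ± 0.346 for Detroit 562 minus SCC-9 (adjusted p = 4.16e-11) and -5.55 ± 0.314 for FaDu minus SCC-9 (adjusted p = 7.39e-11). With the reads of HOXD4 subtracted, these values were -6.66 and -5.44. HOXD4 itself differed by -5.83 ± 0.455 and -5.67 ± 0.441. HOXD8, next to the change of sign, differed by less, with 420, 457 and 442 in SCC-9, 352, 304 and 318 in Detroit 562 and 180, 189 and 218 in FaDu. Its difference of Detroit 562 minus SCC-9 was -0.44 ± 0.0924 (adjusted p = 0.00039) and fell below the minimum size without library 2 of untreated Detroit 562 (-0.39). The same held between the HGF-treated libraries (-0.28) and for the mean of untreated and treated groups (-0.36). HOXD9 had 80.3, 87.1 and 111 in Detroit 562, compared with 86.6, 140 and 96.9 in FaDu and 16.3, 21.9 and 17.4 for SCC-9, so that its difference to Detroit 562 was 2.31 ± 0.299 (adjusted p = 2.17e-06). HOXD1, the most anterior member, had 14.4, 23.8 and 17.4 in SCC-9 and at most 13.2 in an untreated library of the other lines. HOXD12, at the posterior side, had 14.2, 7.62 and 10.8 in Detroit 562 and at most 2.86 in FaDu and 0.959 for SCC-9. For HOXD1 the call between Detroit 562 and SCC-9 was lost without library 2 of untreated SCC-9 (-0.57, adjusted p = 0.152) and that between Detroit 562 and FaDu without library 1 of untreated Detroit 562 or library 3 of untreated FaDu. DESeq2 called neither for HOXD1 (adjusted p = 0.126 and 0.111).

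Few HOX genes were called with HGF. In Detroit 562 3 of 38 were called, all of them higher, beside 17.9% of all genes called and 6.16% called higher. These were HOXB9, HOXB6 and HOXD13. None was called in FaDu (0.0258% of all genes) or in SCC-9 (0% of all genes), where 1 and 4 HOX genes had an unadjusted p below 0.05 (8.06% and 4.14% of all genes). DESeq2 called 0 HOX genes in both lines as well, beside 0.464% and 0.13% of all genes. In Detroit 562 9 HOX genes had an unadjusted p below 0.05 (38.4% of all genes). Over the HOX genes the median log2 fold change was 0.07 (Detroit 562), -0.04 (FaDu) and 0.09 (SCC-9), and over all genes -0.0057, -0.0039 and 0.0013. Within a line, libraries of the same replicate number deviated together, and with a replicate block in the model 4 HOX genes were called in Detroit 562 (21.5% of all genes), 1 in FaDu (5.6%) and 2 in SCC-9 (1.97%).

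**Figure D3:**
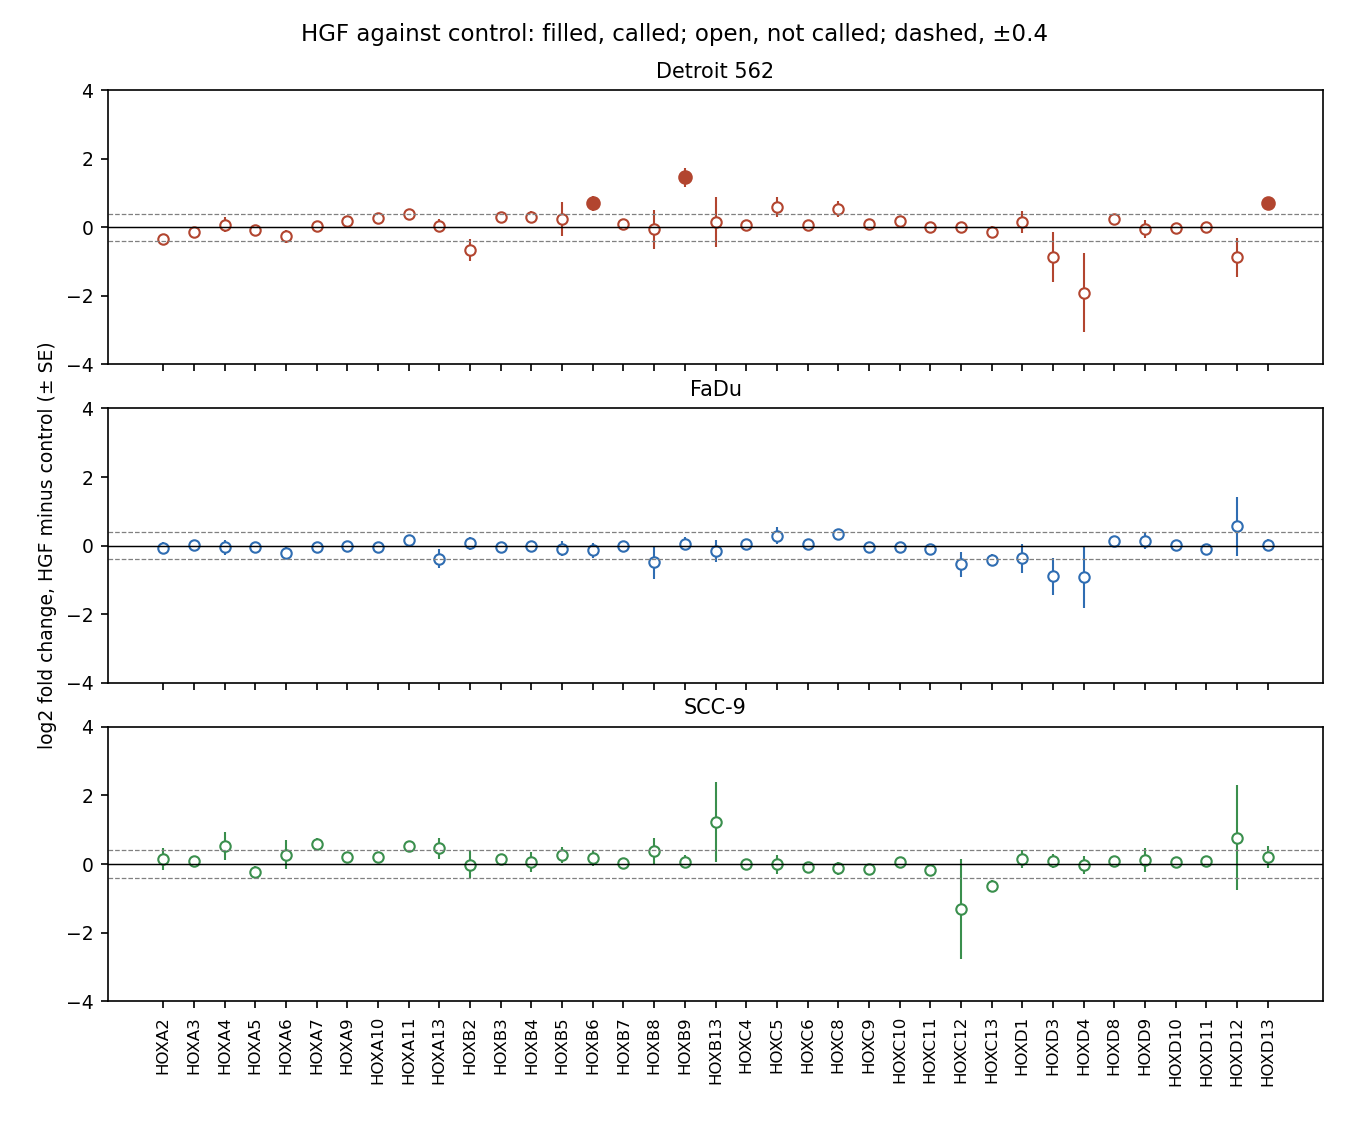
Log2 fold change with HGF against control for HOX genes tested in each line, with standard errors from edgeR. In this fit without the replicate block HOXB9, HOXB6 and HOXD13 were called in Detroit 562, and in FaDu and SCC-9 no HOX gene was.

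HOXB9 showed the largest called rise. Its normalized counts in Detroit 562 were 20.8, 21.8 and 25.9 without and 64.5, 50.1 and 73.2 with HGF, so that the groups did not overlap and HGF was higher in all 3 same-numbered pairs. This was a 2.74-fold increase (log2 1.45 ± 0.268, adjusted p = 0.00221). The two-sided exact permutation test gave p = 0.1, the smallest value that 3 libraries against 3 allow. The treated libraries of Detroit 562 remained below all libraries of FaDu and SCC-9. In FaDu HOXB9 had 116, 182 and 207 without and 129, 178 and 219 with HGF (log2 0.06 ± 0.201, adjusted p = 0.954), and in SCC-9 385, 380 and 375 without and 425, 400 and 366 with HGF (0.06 ± 0.19). The response of HOXB9 differed between Detroit 562 and SCC-9 by 1.39 ± 0.329 (adjusted p = 0.0949), and HOXB9 was the 1 HOX gene called in this comparison (0.924% of all genes). Without 11 of the 18 libraries in turn the adjusted p was between 0.111 and 0.309, and with the replicate block it was 0.00027. Between Detroit 562 and FaDu the responses differed by 1.39 ± 0.335 (adjusted p = 0.134), with the replicate block at an adjusted p of 0.000749 and by DESeq2 at 0.02.

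HOXD13, highest in Detroit 562 among the untreated lines, rose there with HGF. It had 343, 329 and 381 normalized counts without and 570, 592 and 567 with HGF, and every treated library lay above every control. The increase was 1.64-fold (log2 0.72 ± 0.154, adjusted p = 0.0046). HOXD13 had 129, 122 and 135 without and 113, 128 and 148 with HGF in FaDu (log2 0.01 ± 0.167, adjusted p = 0.993), and at most 17.7 in SCC-9. The difference of the responses between Detroit 562 and FaDu was 0.70 ± 0.227 (adjusted p = 0.277), with the replicate block 0.71 ± 0.157 (adjusted p = 0.0105) and by DESeq2 0.69 (adjusted p = 0.0344). The neighboring genes of the posterior HOXD end did not pass the test in Detroit 562. HOXD11 had 855, 891 and 876 without and 938, 855 and 845 with HGF, and HOXD10 had 1599, 1681 and 1931 without and 1674, 1714 and 1771 with HGF (log2 -0.01 ± 0.106).

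HOXB6, a gene of the thoracic region, had 254, 288 and 269 normalized counts in untreated and 456, 369 and 495 in treated Detroit 562. The groups did not overlap, and the increase was 1.63-fold (log2 0.70 ± 0.221, adjusted p = 0.0289). This call was lost without library 1 of untreated Detroit 562 (0.66, adjusted p = 0.112) or library 3 of treated Detroit 562 (0.61, adjusted p = 0.101). In FaDu HOXB6 had 221, 330 and 315 without and 191, 218 and 380 with HGF, in SCC-9 210, 218 and 159 without and 192, 240 and 235 with HGF, and the groups overlapped in both. The responses of Detroit 562 and FaDu differed by 0.84 ± 0.313 (adjusted p = 0.339), with the replicate block by 0.86 ± 0.217 (adjusted p = 0.0206). HOXB3, whose row contains nearly all of HOXB6, had 897, 917 and 921 without and 1170, 1041 and 1137 with HGF in Detroit 562 (log2 0.29 ± 0.13, adjusted p = 0.11). With the reads of HOXB4, HOXB5 and HOXB6 subtracted, the value of HOXB3 was -0.05 ± 0.162 (adjusted p = 0.843). HOXB7, whose row contains HOXB9, had 0.10 ± 0.0845 as counted and 0.02 with HOXB8 and HOXB9 subtracted. Nearly all reads within HOXB6 count for HOXB3 too, and those within HOXB9 for HOXB7. From which gene of each pair they come cannot be told from these counts.

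**Figure D4:**
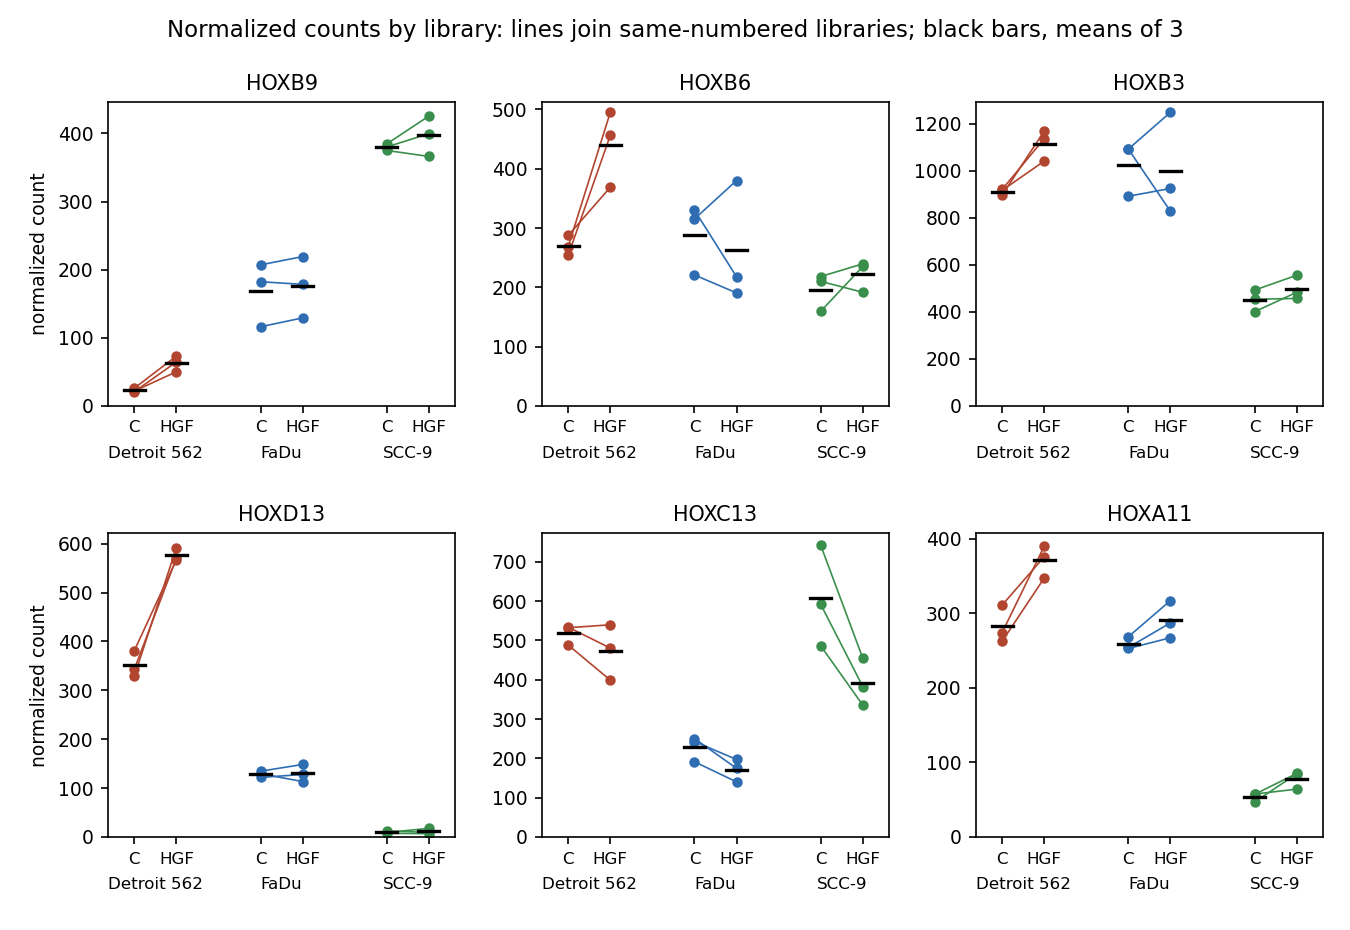
Normalized counts of 6 HOX genes by library, without (C) and with HGF, with lines between libraries of the same number and bars at the means of 3. HOXB9, HOXB6 and HOXD13 separate in Detroit 562, and HOXC13 is lower with HGF in each of 3 pairs in FaDu and in SCC-9.

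HOXC13 was lower with HGF in every same-numbered pair of FaDu and SCC-9. In SCC-9 it had 486, 592 and 742 normalized counts without and 335, 383 and 455 with HGF, without overlap. The log2 fold change was -0.63 ± 0.167, which did not pass the test (adjusted p = 0.685), whereas the fit with the replicate block gave -0.63 ± 0.0775 (adjusted p = 0.00087). In FaDu it had 243, 191 and 250 without and 197, 140 and 175 with HGF, where the groups overlapped (-0.42 ± 0.178, adjusted p = 0.594, with the replicate block -0.42 ± 0.0939 and adjusted p = 0.0102). HOXC13 had 532, 534 and 488 without and 540, 480 and 399 with HGF in Detroit 562 (-0.13 ± 0.167). Its responses in Detroit 562 and SCC-9 differed by 0.50 ± 0.236 (adjusted p = 0.322), with the replicate block by 0.49 ± 0.11 (adjusted p = 0.00702).

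HOXA11 and HOXC5 were called with the replicate block alone. HOXA11, a gene of the forearm and uterus, had 57.5, 57.2 and 47 normalized counts in untreated and 64.2, 85.2 and 84.7 in treated SCC-9 (log2 0.53 ± 0.144, adjusted p = 0.731, with the block 0.0717). In Detroit 562 it had 274, 262 and 311 without and 390, 347 and 376 with HGF, which did not overlap, but the difference of 0.39 ± 0.121 (adjusted p = 0.0263) was below the minimum size. HOXC5 in Detroit 562 had 13.2, 22.9 and 32.4 without and 30.8, 29.6 and 41.5 with HGF (0.58 ± 0.291, adjusted p = 0.156, with the block 0.0771). Without library 3 of untreated Detroit 562 HOXC5 was called in the fit without the block as well (0.92, adjusted p = 0.0336). HOXA10 had a difference of responses between Detroit 562 and FaDu of 0.33 ± 0.111 (adjusted p = 0.288), with the block at an adjusted p of 0.0153. In that fit 4 HOX genes differed in response between these lines (19.1% of all genes) and 2 between Detroit 562 and SCC-9 (26.9%), against 0 (0.239%) and 1 without the block. At an unadjusted p below 0.05 these were 4 (11.6% of all genes) and 3 (15.4%), and DESeq2 called 2 (1.85%) and 1 (4.56%). Between FaDu and SCC-9 no HOX gene was called in either fit (0% of all genes without and 1.32% with the block), nor by DESeq2 (0.0256%), and 2 had an unadjusted p below 0.05 (2.18%).

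Of the 3 HOX genes with the highest normalized counts in each line, none was called with HGF without the block. HOXC13 belonged to them in SCC-9, where its value of -0.63 was called with the block as given above. HOXA3 had 1352, 1247 and 1314 normalized counts without and 1381, 1161 and 1032 with HGF in Detroit 562 (log2 -0.13 ± 0.107). HOXA9 had 1011, 1093 and 1180 without and 1271, 1221 and 1264 with HGF, which did not overlap, with a fold change of 0.19 ± 0.105 (adjusted p = 0.184). In FaDu HOXA9, HOXD10 and HOXA3 had values of -0.02 ± 0.103, 0.03 ± 0.106 and 0.01 ± 0.107, and each had overlapping groups. In SCC-9 HOXB7 had 1151, 1178 and 1117 without and 1206, 1208 and 1090 with HGF (0.02 ± 0.0826), and HOXC10 had 503, 513 and 608 without and 569, 528 and 597 with HGF (0.06 ± 0.0879).

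The TALE partners of HOX proteins differed between the lines in opposite directions. Of 8 partner genes (PBX2 to PBX4, MEIS1 to MEIS3, PKNOX1 and PKNOX2) 6 were called between Detroit 562 and FaDu (3 higher and 3 lower in Detroit 562), 5 between Detroit 562 and SCC-9 (2 and 3) and 7 between FaDu and SCC-9 (4 higher and 3 lower in FaDu), beside 61%, 65.4% and 64.2% of all genes. MEIS2 had 1905, 2053 and 2021 normalized counts in Detroit 562, compared with 704, 677 and 817 in FaDu and 209, 198 and 228 for SCC-9, without overlap of the lines, and its log2 difference of Detroit 562 minus SCC-9 was 3.23 ± 0.105 (adjusted p = 9.51e-14). PBX3 had the opposite order, with 79.4, 87.1 and 127 in Detroit 562 and 155, 143 and 159 in FaDu, while SCC-9 had 472, 413 and 508. PBX2 lay between 2255 and 3122 in the untreated libraries.

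With HGF, 2 of the 8 partner genes were called in Detroit 562 (17.9% of all genes) and none in FaDu or SCC-9. With the replicate block MEIS3 was called as well in Detroit 562 (1.03 ± 0.456, adjusted p = 0.0795), beside 21.5% of all genes. This value rests on few counts, between 2 and 6 in a library without and between 7 and 11 with HGF. MEIS1 fell from 456, 440 and 391 to 264, 293 and 293 normalized counts (log2 -0.60 ± 0.171, adjusted p = 0.0186), and every treated library was below every control. PBX3 rose, with 79.4, 87.1 and 127 without and 135, 109 and 195 with HGF (0.58 ± 0.198, adjusted p = 0.0416), although its groups overlapped and a fit of Detroit 562 alone gave an adjusted p of 0.156.

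**Figure D5:**
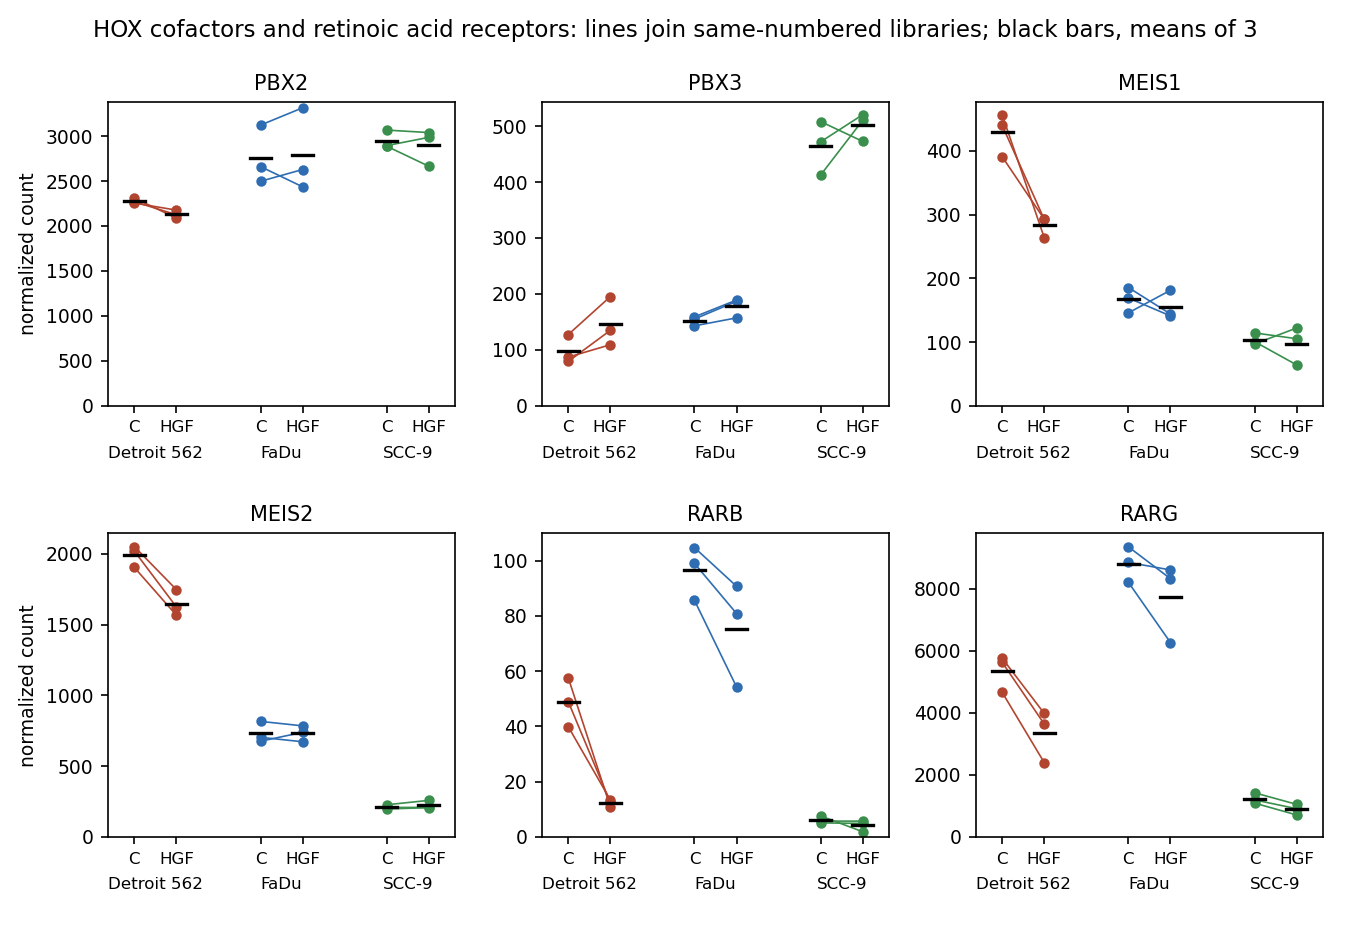
Normalized counts by library of PBX and MEIS partner genes and retinoic acid receptors, without (C) and with HGF. MEIS1 is highest in Detroit 562 and falls there with HGF, PBX3 is highest in SCC-9, and RARB falls in Detroit 562.

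Of the genes for receptors and enzymes of retinoic acid and for CDX factors, 5 of 9 passed the filter. RARB, a retinoic acid receptor, had 57.6, 49 and 40 normalized counts in untreated and 10.9, 12.5 and 13.4 in treated Detroit 562, a 3.98-fold fall (log2 -1.99 ± 0.279, adjusted p = 0.000451). RARG had 5758, 5628 and 4660 without and 3979, 3639 and 2396 with HGF (-0.68 ± 0.175, adjusted p = 0.0112). CYP26A1, which degrades retinoic acid, had 120, 121 and 83.1 without and 72.4, 59.2 and 34.2 with HGF (-0.96 ± 0.375, adjusted p = 0.0747). These 3 were the genes of the list called in Detroit 562 (17.9% of all genes), and none was called in FaDu (0.0258%) or SCC-9 (0%). With the replicate block 4 were called in Detroit 562 (21.5% of all genes), 2 in FaDu (5.6%) and 1 in SCC-9 (1.97%). The added genes were CYP26B1, another enzyme that degrades retinoic acid, in Detroit 562 (0.60 ± 0.163, adjusted p = 0.0075) and FaDu (0.46 ± 0.14, adjusted p = 0.0484), CYP26A1 in FaDu (-0.64 ± 0.161, adjusted p = 0.0246) and RARG in SCC-9 (-0.48 ± 0.0857, adjusted p = 0.00681). RARG in SCC-9 had 1091, 1195 and 1423 without and 709, 911 and 1050 with HGF, which did not overlap. In FaDu RARB was lower in 3 of 3 pairs and was not called with the block either (-0.37 ± 0.175, adjusted p = 0.197). The responses of RARB in Detroit 562 and FaDu differed by -1.64 ± 0.355 (adjusted p = 0.106, with the replicate block 0.00634). Between the untreated lines RARB, RARG, CYP26A1 and CYP26B1 were called lower in SCC-9 than in both others (31.4% and 30.7% of all genes), and CYP26A1 had at most 1.92 normalized counts in SCC-9. CDX1, CDX2 and CDX4, regulators of posterior HOX genes, had at most 4.96 normalized counts in any library.

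Of 15 Polycomb and Trithorax genes 9, 8 and 9 were called between the untreated lines (Detroit 562 against FaDu, Detroit 562 against SCC-9, FaDu against SCC-9), beside 61%, 65.4% and 64.2% of all genes. By direction these were 2 higher and 7 lower, 3 higher and 5 lower, and 6 higher and 3 lower in the first line of each pair. With HGF 0 were called in any line with or without the block. The shares of all genes were 17.9% (Detroit 562), 0.0258% (FaDu) and 0% (SCC-9) without and 21.5%, 5.6% and 1.97% with the block. EED, a core subunit of Polycomb repressive complex 2, was higher in Detroit 562 than in FaDu (log2 difference 1.15 ± 0.0546) and than in SCC-9 (1.79 ± 0.0558). EZH2, the methyltransferase of that complex, lay between 1464 and 2182 normalized counts in the untreated libraries, and its relative EZH1 was highest in SCC-9 with 1034, 1260 and 1082. Of 10 genes that flank the clusters 6 passed the filter and 3, 3 and 2 were called between the lines (61%, 65.4% and 64.2% of all genes), with 2 higher and 1 lower, 2 higher and 1 lower, and 1 higher and 1 lower. EVX1 and EVX2, next to HOXA13 and HOXD13, had at most 2.28 normalized counts in any library. CALCOCO1, beside HOXC, was the 1 flanking gene called with HGF in Detroit 562 (17.9% of all genes), with 582, 493 and 436 without and 233, 199 and 239 with HGF (-1.17 ± 0.189, adjusted p = 0.00112).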

How the data were processed

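mRNA was sequenced from 18 libraries, 3 untreated and 3 HGF-treated for each of 3 cell lines. According to the methods and the submitters' processing notes, the authors made stranded libraries, trimmed reads with cutadapt (1.16 in the processing notes, with a second version beside it in the methods), aligned them with STAR 2.5.2b to GRCh38 (GENCODE 28) and used bedtools for counting. The deposited values are raw counts of reads per gene, without normalization. No column of per-sample values was left unmatched (0).

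HOX genes were found by symbol, and their coordinates are those of the files. Exon lengths were taken from GENCODE 44, in which all 39 matched by identifier and 12 had the same extent. R 4.3.3 was used, with edgeR 4.0.16 for the main tests and DESeq2 1.42.0 for comparison (limma 3.58.1 is a part of the former). The filter was filterByExpr over 6 groups and the scaling TMM. The quasi-likelihood fit used all libraries, gave each combination of line and treatment its own mean, and was tested on simulated counts. Adjusted p-values are Benjamini-Hochberg values over 15475 genes, and differences of responses were called by the adjusted p alone. The methods state that the experiment was repeated, but no label ties a library to a repeat or a culture, and p-values measure the spread between these libraries. A log2 value of single genes (normalized count plus 1) was also compared with exact permutation tests.

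Replicate numbers come from the sample titles. Across genes, deviations from the group means of same-numbered control and HGF libraries had correlations of 0.248, 0.116 and 0.399 (Detroit 562), 0.324, 0.383 and 0.511 (FaDu) and 0.282, 0.168 and 0.247 (SCC-9). Those of unlike numbers lay between -0.434 and 0.186. In Detroit 562 control 1 with HGF 2 (0.186) exceeded the same-numbered pair 2 (0.116). The numbers were taken to pair the libraries, which is less clear for libraries 1 and 2 of Detroit 562. The model without the block was kept as the main one because the methods of the study name none. It leaves this pairing out. With HGF it called 0.0258% (FaDu) and 0% (SCC-9) of all genes, against 5.6% and 1.97% with the block. A gene not called in these lines without the block can therefore still respond.

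Genes given with values between lines were those detected in one line and not in another, and those with the largest difference in each cluster. Others among the 39 were added after their values were seen. With HGF they were all genes called with or without the replicate block and the 3 most abundant per line, and others named as neighbors or overlapping genes were added after their values were seen. The HOX genes, the 4 lists of other genes and the tests were chosen with earlier results of these data known.

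Alternatives were other size factors, other filters, DESeq2 with and without its prior, a replicate block, treated in place of untreated libraries, the libraries of 1 line, other thresholds, HOX genes without overlap, and each library left out in turn. The subtraction of inner genes was chosen after seeing the data. Results of some genes are not reported here, although counts over the HOX genes as a whole include every member.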

Additional observations from a re-analysis of the deposited data

Results flagged for a closer look

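The response of HOXB9 to HGF differed between cell lines by a test of the difference itself, with a log2 difference of 1.39 between Detroit 562 and SCC-9 (adjusted p = 0.0949 by edgeR's quasi-likelihood test). This call was lost without 11 of the 18 libraries in turn (adjusted p between 0.111 and 0.309), and the difference between Detroit 562 and FaDu, also 1.39, was not called (adjusted p = 0.134). HGF was higher in 3 of 3 same-numbered pairs of Detroit 562 and in 2 of 3 of SCC-9.

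Reads were also counted in 3 rows of the table that overlap HOX genes on the same strand and do not belong to the 39 genes. The row HOXA10-HOXA9, a readthrough of both genes, had a mean of 1052 normalized counts in untreated Detroit 562 (FaDu 1602, SCC-9 170.4). The row RP11-834C11.12, which overlaps HOXC4 to HOXC10, had 557.5, 1078 and 868. AC009336.19, which overlaps HOXD3 and HOXD4, had 287.4 in SCC-9. Since a read counts for every row it overlaps, these values share reads with the HOX genes and were not tested apart from them.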

How the results depend on the processing

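The counts of HOX genes called between untreated lines stayed within 1.5 times their value under other size factors, filters, DESeq2, the replicate block and the subtraction of inner genes. With an adjusted p below 0.05 and a log2 difference of at least 1, 13 were called between Detroit 562 and FaDu. A 4-fold minimum left 9, 21 and 18 (Detroit 562 against FaDu, Detroit 562 against SCC-9, FaDu against SCC-9), and the HOX genes without same-strand overlap, which are fewer by construction, gave 12, 14 and 14. Of these genes 12, 14 and 9 were detected in Detroit 562, FaDu and SCC-9. Leaving out 1 library gave 23 to 27, 33 to 36 and 31 to 34 calls.

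For HGF in Detroit 562 the count was 1 with the stricter threshold, 6 without a minimum fold change, 1 among genes without overlap, and 2 to 7 on leaving out a library, with 7 without untreated library 3 and 5 without treated library 2. HOXB9 and HOXD13 were called without any 1 library. The replicate block moved the count from 3 to 4 in Detroit 562, from 0 to 1 in FaDu and from 0 to 2 in SCC-9. Genes with a different response of Detroit 562 and FaDu were 2 by DESeq2 with or without its prior and 4 with the block, and 0 to 1 on leaving out a library (1 without untreated library 3 of Detroit 562 or untreated library 1 of FaDu). Against SCC-9 they were 2 with the block, 0 with the stricter threshold or without overlapping genes, and 0 to 1 on leaving out a library. The block changed no call of a HOX gene with HGF beyond these counts.

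In HGF-treated libraries the difference between Detroit 562 and FaDu of HOXB6 turned from -0.10 to 0.74 (adjusted p = 0.0062), and that between Detroit 562 and SCC-9 of HOXC5 from -0.55 to 0.03 (adjusted p = 0.92). By construction such a shift is the difference between the lines' responses to HGF, given above for HOXB6. The cause of that difference was not tested. Further calls between untreated lines were lost between the treated ones. For Detroit 562 minus FaDu they included HOXC10 (-0.38) and HOXD12 (1.00, adjusted p = 0.216). For Detroit 562 minus SCC-9 they included HOXB2 (0.61, adjusted p = 0.199) and HOXB13 (1.23, adjusted p = 0.19), and for FaDu minus SCC-9 HOXB6 (0.24, adjusted p = 0.337). HOXB8 was called between treated FaDu and SCC-9 (-1.56, adjusted p = 0.00354). Genes with a few counts, such as HOXD12, HOXB8 and HOXB13 outside FaDu, allow no firm value at this depth.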
